A study of Mus musculus with 4 samples.

Results

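The genes described here encode the subunits of RNA polymerase II (Pol II) and the factors that carry it through a gene after initiation. They were taken by symbol from the count table as a fixed list of 48 genes out of 56748 listed, in 11 groups by complex, and the rule sets no threshold on a measured value. All 48 passed the filter on low counts that kept 18157 genes for testing. The libraries came from E14 cells, a mouse embryonic stem cell (mESC) line, and how RNA was selected for them was not stated in the sources used here. 2 libraries were labelled WT and 2 were labelled Npac knockout (Npac KO). Npac, whose gene is listed under the symbol Glyr1, is a nuclear protein that binds the chromatin of transcribed genes. The KO lines were made with CRISPR/Cas9 guides directed at exon 3 followed by puromycin selection and colony picking, and both clones and the WT cells came from the same line. The study names KO1 and KO2 as separate knockout lines. The labels give no age or treatment, and whether WT1 and WT2 were separate cultures is not given in the sources used here, so the p values measure the spread between these libraries, which may be partly technical. Bulk RNA was measured, so fewer cells expressing a gene and less RNA per cell cannot be told apart.

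Pol II is a multi-subunit enzyme with a large subunit, Polr2a, whose carboxy-terminal domain (CTD) is phosphorylated as transcription proceeds. Shortly after initiation Pol II pauses under the control of DSIF and NELF, and the kinase P-TEFb (Cdk9 with cyclin T) releases it, while Hexim1 and Larp7 hold P-TEFb in an inactive particle with the 7SK RNA. The PAF complex, the super elongation complex, Spt6, the histone chaperone FACT and the cleavage-stimulating factor TFIIS then accompany Pol II along the gene, and Xrn2 degrades the RNA left after cleavage at the gene end. In mESCs, control of paused Pol II is a well-known step in the expression of developmental and signalling genes.

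The upstream sequences of the genes that changed are shown because they lie just before the points where transcription of these genes starts. RefSeq promoters (GRCm38.p6) were matched for 40 of the 48 genes. Each stretch below covers the 120 bases from 130 to 11 bases before the first listed start, written 5′ to 3′ on the strand of the gene, for 5 of the 7 genes past both thresholds. The stretch of Ccnk overlaps an annotated exon and is not shown. Capitals mark matches on either strand to the motifs searched, which were the GC box (GGGCGG), the CCAAT box (CCAAT), the ETS core (CCGGAA), the cyclic AMP response element or CRE (TGACGTCA), the E-box (CACGTG) and a TATA box (TATAAA).
Polr2c (chr8:94857320-94857439, plus strand): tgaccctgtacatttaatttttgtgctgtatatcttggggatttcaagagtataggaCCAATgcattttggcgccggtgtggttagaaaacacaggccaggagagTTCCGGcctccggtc
Larp7 (chr3:127553360-127553479, minus strand): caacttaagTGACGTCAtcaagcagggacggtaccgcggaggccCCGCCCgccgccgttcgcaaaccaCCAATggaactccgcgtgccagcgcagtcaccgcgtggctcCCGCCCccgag
Mllt3 (chr4:88033418-88033537, minus strand): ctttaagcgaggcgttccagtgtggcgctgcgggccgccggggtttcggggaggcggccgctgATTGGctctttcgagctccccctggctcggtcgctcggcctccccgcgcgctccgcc
Tcea3 (chr4:136247827-136247946, plus strand): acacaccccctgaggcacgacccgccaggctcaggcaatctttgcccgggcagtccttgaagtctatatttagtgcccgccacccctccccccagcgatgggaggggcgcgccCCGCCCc
Aff1 (chr5:103754032-103754151, plus strand): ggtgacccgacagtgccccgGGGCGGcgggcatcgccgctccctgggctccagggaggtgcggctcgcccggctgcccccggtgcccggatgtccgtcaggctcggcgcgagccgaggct
No motif was held by all 5 stretches. Larp7, Tcea3 and Aff1 held a GC box, Polr2c, Larp7 and Mllt3 held a CCAAT box, Polr2c held an ETS core, and Larp7 held the CRE. Over the 40 matched genes, a GC box was present in 62.5% against 25.5% of all 32851 listed promoters, and an ETS core in 35% against 7.6%. The CCAAT box was at 20% and 21.4%, the TATA box at 2.5% and 6.5%, the E-box at 5% and 3.55%, and the CRE at 2.5% and 1.19%. The median GC content was 66.7% for the matched genes and 54.2% for all promoters. The matched genes were taken at their first listed promoter only. The 32851 promoters include every listed start and were not limited to genes tested here, so the sets compared are unlike. The shares describe letters in a window and were not tested.

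The libraries held 15850805 (WT1), 16568283 (WT2), 16233971 (KO1) and 16965120 (KO2) assigned reads. The 48 genes took 0.612%, 0.545%, 0.561% and 0.569% of them. Glyr1 itself had 259 and 178 CPM (read counts scaled to library size, normalized by the trimmed mean of M values, TMM) in WT1 and WT2 and 47.9 and 51.3 CPM in KO1 and KO2. Its KO libraries were therefore both below the WT libraries, at a mean of 22.7% of the WT mean (log2 fold change -2.14, standard error or SE 0.23, adjusted p = 0.00174). Adjusted p values printed here come from the quasi-likelihood test of edgeR with the Benjamini and Hochberg adjustment. It was made over all 18157 genes, or over 18151 where pseudogene reads were added to their parents. Without the filter on low counts 32685 genes were tested, and 15242 with at least 10 reads in every library. Calls under DESeq2 and limma rest on the tests of those packages. A gene was called when its adjusted p was below 0.05 with a fold change over 1.5.

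The mESC label was checked against 8 markers, none of which was at 0 in any library. Their summed FPKM (fragments scaled to gene length and library size) was 4409 and 3802 in WT and 3865 and 3720 in KO cells, led by Dppa5a. Within this list Zfp42 was called lower (log2 fold change -2.64) and Klf2 was called higher (0.97) in the KO libraries. Pou5f1 (-0.42), Sox2 (-0.53), Esrrb (-0.79) and Tdgf1 (-0.59) also had lower FPKM in both KO libraries than in both WT libraries, without a call. Dppa5a, which carried much of the sum, had 2053 and 1979 FPKM in WT and 2436 and 2408 FPKM in KO libraries (0.27, not called). Nanog overlapped between genotypes (-0.21). The 5 trophectoderm markers summed to 14 and 9.49 FPKM in WT and 43.2 and 37.2 FPKM in KO cells, and most of it was Tfap2c, which was called higher. Cdx2, the defining marker of that lineage, had 0 and 3 reads in WT and 0 and 16 reads in KO libraries. Of the 5 fibroblast markers, 1 (Dcn) had no reads in any library. The fibroblast sum was 10.8 and 17.7 FPKM in WT and 11.4 and 13.0 FPKM in KO cells, led by Thy1. The 6 primitive endoderm markers summed to 7.80 and 6.78 FPKM in WT and 3.36 and 4.82 FPKM in KO cells. The sum of the 5 neural markers ranged from 28.6 to 35.8 FPKM over the 4 libraries. The 5 mesoderm markers summed to 3.04 and 4.66 FPKM in WT and 5.65 and 5.69 FPKM in KO cells, and none of them was called. These sums hide single markers that were called, namely neural Sox1 (log2 fold change -2.34) and primitive endoderm Sox7 (-4.48), which were lower, and fibroblast Col1a1 (1.29), which was higher. The neural sum was mostly Tubb3. The part that any of these differences has in the values below was not tested.

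Loss of Npac was accompanied by changes in a few of the genes, while the median of the group stayed near 0. Of the 48, 5 were higher in Npac KO cells (Polr2k, Polr2c, Larp7, Mllt3 and Tcea3) and 2 were lower (Ccnk and Aff1), which is 10.4% and 4.17% of the list. Over all genes tested, 11% were higher and 10.7% were lower. Either direction counted, this is 7 of 48, beside 21.7% of all genes. The KO pair lay wholly above the WT pair in 11 genes (33.2% of all genes tested) and wholly below it in 13 (32.5%), so the genotypes did not overlap in 24 of 48 genes, against 65.7% of all genes tested. The median log2 fold change of the 48 was -0.06, beside 0.0015 for all genes, and 38 (79.2%) had a fold change under 1.5 in either direction, against 52.8% of all genes tested. For 37 of the 41 genes that were not called, the 95% interval of the log2 fold change lay inside a 2-fold change either way. The intervals of the other 4 (Nelfe, Ell2, Ell3 and Eaf2) reached past it. Without KO1 none of the 7 was called, where 3.54% of all genes were higher and 3.34% lower. Without KO2 only Polr2k and Tcea3 were, where these shares were 3.7% and 3.75%. Without WT1, 8 genes were called higher and 2 lower, with Cdk12, Aff4 and Supt6 among the higher and Nelfa and Eaf2 as the lower, in a setting that called 14.8% of all genes higher and 15.4% lower. Without WT2, 7 were higher and 4 lower, with Polr2i, Polr2l and Nelfe gained among the higher and Cdk13 and Ell2 among the lower, in a setting that called 19.1% and 18.2% of all genes.

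**Figure D1:**
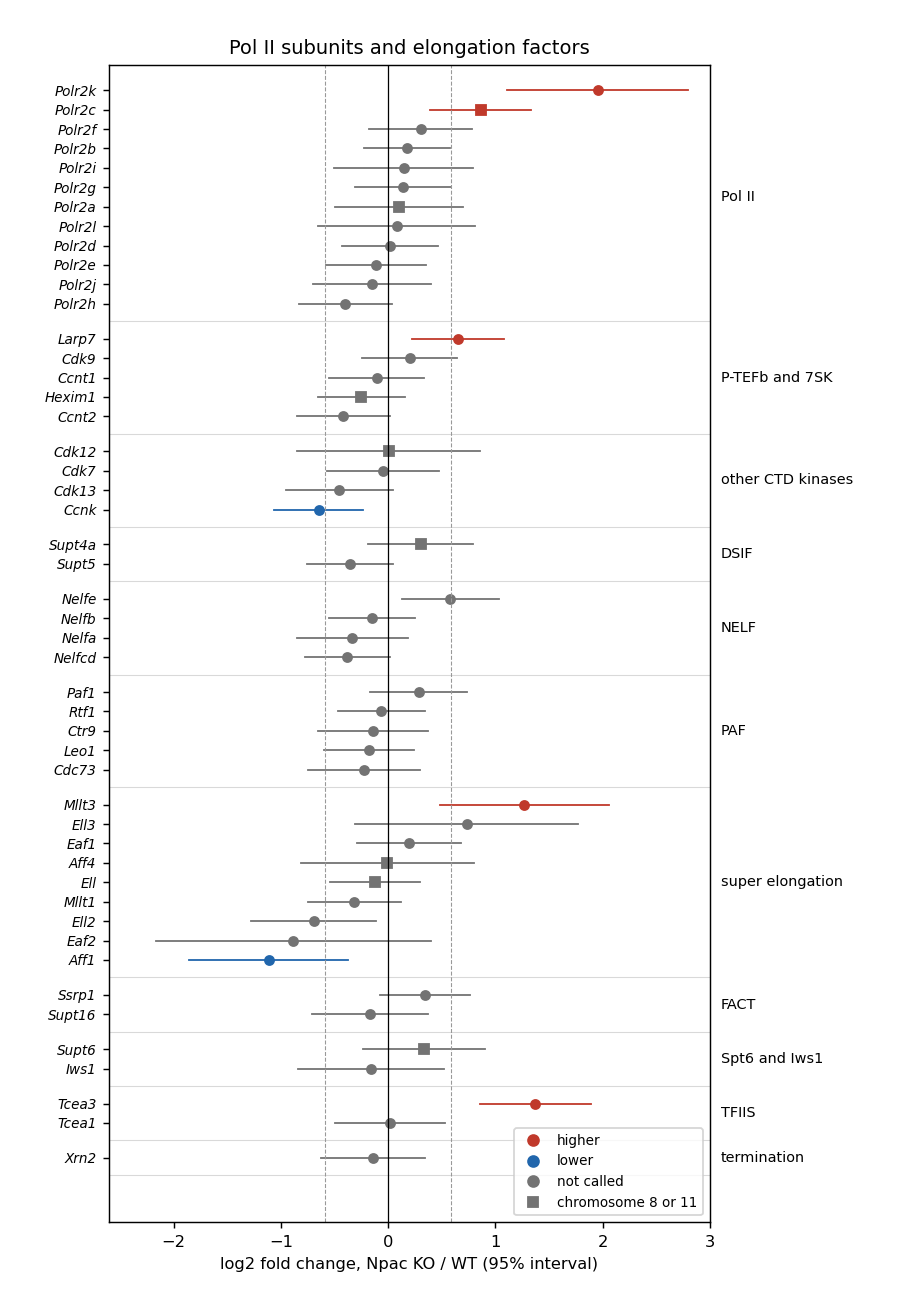
Log2 fold change (Npac KO over WT) of each of the 48 genes with its 95% interval, grouped by complex and ordered within it. Red marks the 5 genes called higher and blue the 2 called lower, squares mark genes on chromosomes 8 and 11, and dashed lines stand at a fold change of 1.5. Most points lie between the dashed lines, and the called genes are spread over 5 of the 11 groups.

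**Figure D2:**
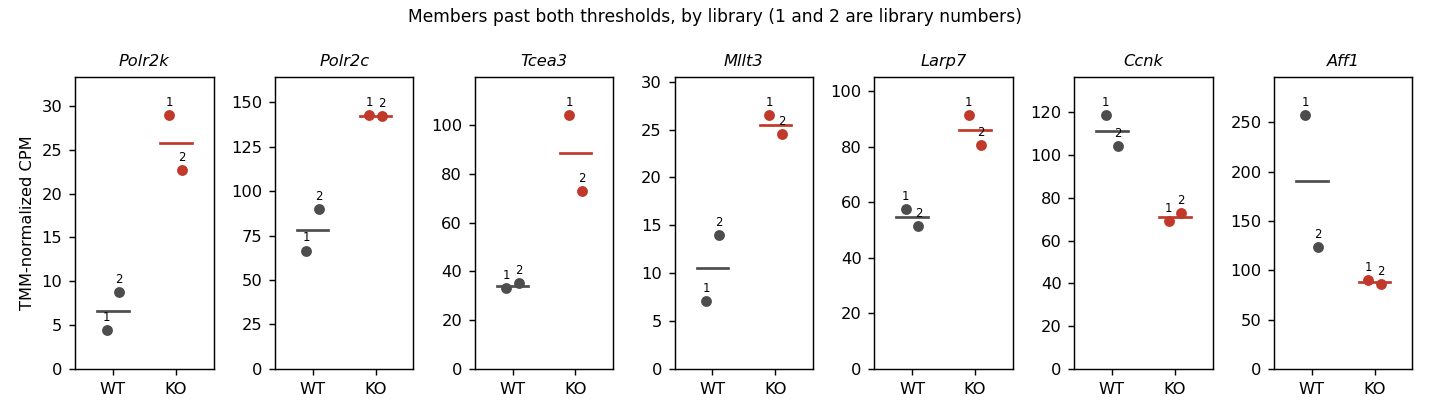
TMM-normalized CPM of the 7 called genes in each library, with numbers giving the library and a bar the mean of each genotype (n = 2). In every panel both KO libraries lie on the same side of both WT libraries. The WT pair is far apart for Aff1 (257 and 124 CPM).

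Among the 12 Pol II subunits, 2 were higher (16.7%) and none was lower (0%), beside 11% and 10.7% of all genes tested. Their median log2 fold change was 0.12. Polr2k, a small zinc-binding subunit shared by the 3 nuclear polymerases, had 4.45 and 8.81 CPM in WT1 and WT2 and 29.0 and 22.7 CPM in KO1 and KO2. Both KO libraries stood well above both WT libraries, although the WT values rest on only 68 and 154 reads. The log2 fold change was 1.95 (SE 0.36, adjusted p = 0.0108), the highest of the 48 genes. Polr2k (ENSMUSG00000045996, protein-coding) lies on chromosome 15 from 36174156 to 36177156 in the coordinates of the deposited table. The 7 processed pseudogenes matched to it held 51 and 36 reads in WT and 20 and 8 reads in KO libraries, which is not small beside the 68 reads of Polr2k in WT1. With these reads added, its log2 fold change was 1.51 (adjusted p = 0.0113). Adding the reads of matched pseudogenes to their parent genes changed no call among the 48.

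Polr2c, which with Polr2j forms the platform on which the enzyme assembles, had 66.6 and 90.1 CPM in the WT libraries and 143 and 142 CPM in the KO libraries. The KO libraries were alike and exceeded both WT libraries (log2 fold change 0.86, SE 0.20, adjusted p = 0.0228). Genes of chromosome 8 were higher as a whole in KO cells (median 0.51), and with chromosome medians removed Polr2c was at 0.35 and was not called (adjusted p = 0.253). Polr2c (ENSMUSG00000031783, protein-coding) lies on chromosome 8 from 95584078 to 95600163 in the table, and it shares part of its span with Dok4 on the opposite strand. Dok4 had 337 and 405 reads in WT and 139 and 204 reads in KO libraries, so its reads moved the other way. Whether the reads were counted by strand was not stated. Its platform partner Polr2j had 23.9 and 33.4 CPM in WT and 25.9 and 25.8 CPM in KO libraries, which overlapped.

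The catalytic subunits were not called. Polr2a, the largest subunit and bearer of the CTD, had 910 and 550 CPM in WT1 and WT2 and 770 and 798 CPM in KO1 and KO2. Both KO libraries fell between the WT libraries (log2 fold change 0.10, SE 0.26, adjusted p = 0.803). Polr2b, the second-largest subunit and the other side of the active centre, had 178 and 182 CPM in WT and 212 and 196 CPM in KO libraries. Its groups did not overlap, but its log2 fold change of 0.18 did not pass the test (adjusted p = 0.487). Polr2h, a subunit shared by the 3 polymerases, was at the other end of the group with 64.2 and 75.4 CPM in WT and 54.9 and 50.9 CPM in KO libraries. Its log2 fold change was -0.40 (SE 0.19, adjusted p = 0.161), and Clcn2 on the opposite strand of the same span also had fewer reads in KO libraries (736 and 859, against 1428 and 1291 in WT).

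The remaining subunits were Polr2d and Polr2g, which form the stalk of the enzyme, Polr2e, Polr2f and Polr2l, which are shared with the other polymerases, and Polr2i, which takes part in cleavage of the nascent RNA. Their log2 fold changes ran from -0.11 (Polr2e) to 0.30 (Polr2f), and none passed the test. Polr2i had 24.0 and 41.8 CPM in WT libraries and Polr2l had 22.7 and 45.2 CPM, with the KO libraries between those values for both genes. Among the 5 subunits shared by the 3 polymerases 1 was higher, and among the 7 found only in Pol II 1 was higher. Over all genes tested this share was 11%.

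P-TEFb and its 7SK inhibitors gave 1 higher gene of 5, which was not a kinase subunit, where 11% of all genes tested were higher. Larp7, which binds and stabilises the 7SK RNA, had 57.7 and 51.5 CPM in WT and 91.4 and 80.5 CPM in KO libraries. The KO pair exceeded the WT pair (log2 fold change 0.66, SE 0.19, adjusted p = 0.0413). The Larp7 call was lost without WT2 (0.58) or KO1 (0.55), values under the fold threshold, and without KO2 (0.74). Larp7 (ENSMUSG00000027968, protein-coding) lies on chromosome 3 from 127330363 to 127346998. Hexim1, the protein that inhibits the kinase within the 7SK particle, had 90.5 and 82.0 CPM in WT and 71.2 and 74.0 CPM in KO libraries. Its KO libraries were both lower, by less than the threshold (log2 fold change -0.25, adjusted p = 0.339). Hexim1 lies on chromosome 11, whose genes were higher as a whole in KO cells (median 0.50). With chromosome medians removed Hexim1 was called lower (-0.74, adjusted p = 0.0265).

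The kinase Cdk9 had 82.9 and 103 CPM in WT and 113 and 101 CPM in KO libraries, which overlapped (log2 fold change 0.20, adjusted p = 0.478). Its partner cyclin Ccnt1 had 106 and 89.2 CPM in WT and 82.7 and 98.0 CPM in KO libraries, and these overlapped as well (log2 fold change -0.11). Ccnt2, the alternative cyclin T, had 192 and 154 CPM in WT and 126 and 132 CPM in KO libraries. The KO libraries were both below the WT libraries, with a log2 fold change of -0.42 that did not pass the test (adjusted p = 0.148).

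The other CTD kinases comprised 4 genes, of which 1 was lower, where 10.7% of all genes tested were lower. Ccnk encodes cyclin K, the partner of both Cdk12 and Cdk13, kinases that act on elongating Pol II and are known for their effect on long genes and DNA repair genes. It had 119 and 104 CPM in WT and 69.3 and 72.9 CPM in KO libraries. The KO libraries were close to each other and below both WT libraries (log2 fold change -0.65, SE 0.18, adjusted p = 0.0384). The call was lost with chromosome medians removed (-0.55, adjusted p = 0.0676) and without WT1, where the value of -0.58 was under the fold threshold. It was also lost without KO1 (adjusted p = 0.2998) or KO2 (adjusted p = 0.254). Ccnk (ENSMUSG00000021258, protein-coding) lies on chromosome 12 from 108145838 to 108169618. Cdk13 had 112 and 80.5 CPM in WT and 74.3 and 66.1 CPM in KO libraries, a log2 fold change of -0.46 that did not pass the test (adjusted p = 0.163). Cdk12 had 136 and 57.4 CPM in the WT libraries, with both KO libraries (109 and 85.2 CPM) between them. Its log2 fold change was 0.0042 (SE 0.37), and its sign depended on the scaling, with -0.0003 under the size factors of DESeq2. Cdk7, the kinase of the initiation factor TFIIH, had 65.1 and 44.8 CPM in WT and 54.2 and 52.0 CPM in KO libraries, again between the WT values.

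None of the 11 genes of the pausing factors and the PAF complex passed both thresholds in the edgeR fit described above or in DESeq2. Over all genes tested, 21.7% passed them in that edgeR fit in either direction. Only Nelfe of the 11 passed an unadjusted p of 0.05 in edgeR. Of the DSIF pair, Supt5, the large subunit that contacts Pol II, had 326 CPM in both WT libraries and 262 and 248 CPM in the KO libraries. Its groups did not overlap (log2 fold change -0.35, SE 0.17, adjusted p = 0.181). Supt4a, its small partner, had 43.9 and 55.1 CPM in WT and 67.7 and 54.5 CPM in KO libraries, which overlapped (log2 fold change 0.30, adjusted p = 0.33).

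In NELF, the complex that holds Pol II in the paused state, Nelfe stood apart from the other subunits. Nelfe, the RNA-binding subunit, had 46.1 and 56.6 CPM in WT and 81.5 and 72.2 CPM in KO libraries. The KO pair exceeded the WT pair, but the test missed the threshold (log2 fold change 0.58, SE 0.20, adjusted p = 0.0693). Nelfe was called in 2 of 14 other settings and without 1 of the 4 libraries. It passed without WT2 (0.74, adjusted p = 0.00307), with the library number as a block (adjusted p = 0.0371) and with chromosome medians removed (adjusted p = 0.0474). It did not pass without WT1 (0.41, adjusted p = 0.0858), KO1 (0.48, adjusted p = 0.465) or KO2 (0.67, adjusted p = 0.265). Nelfcd, a core subunit, had 153 and 142 CPM in WT and 114 and 112 CPM in KO libraries, the opposite order (log2 fold change -0.38, adjusted p = 0.146). Nelfb, another core subunit, had 82.4 and 87.9 CPM in WT and 75.5 and 77.8 CPM in KO libraries, also in that order but with a log2 fold change of only -0.15. Nelfa, the subunit that contacts Pol II, had 77.5 and 112 CPM in WT and 70.1 and 80.1 CPM in KO libraries (log2 fold change -0.33, adjusted p = 0.312). The difference between Nelfe and the other 3 subunits was not tested.

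The PAF complex, a scaffold for histone modification during elongation, had the narrowest range among the groups of 5 or more genes, from -0.22 to 0.29 on the log2 scale. Paf1 had 74.8 and 96.9 CPM in WT and 102 and 108 CPM in KO libraries, with both KO libraries higher (log2 fold change 0.29, SE 0.20, adjusted p = 0.323). Cdc73, the subunit also known as parafibromin, had 94.7 and 69.2 CPM in WT and 62.0 and 78.2 CPM in KO libraries, which overlapped (log2 fold change -0.22). Leo1, Ctr9 and Rtf1, the remaining subunits, had log2 fold changes of -0.18, -0.14 and -0.06.

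The super elongation complex is assembled from Ell proteins, their Eaf partners, an Aff scaffold and an Mllt reader of acylated histones. Its log2 fold changes ran from -1.11 to 1.27, about as widely as those of Pol II (-0.40 to 1.95). The super elongation complex had 1 gene called in each direction (11.1% each, beside 11% and 10.7% of all genes tested). A fold change under 1.5 was seen in 4 of its 9 genes (44.4%), against 52.8% of all genes tested. Mllt3, a YEATS-domain protein also named AF9, had 7.14 and 14 CPM in WT and 26.5 and 24.5 CPM in KO libraries. It is one of the least abundant of the 48 genes (109 and 244 reads in WT1 and WT2), and both KO libraries (412 and 424 reads) exceeded the WT libraries. The log2 fold change was 1.27 (SE 0.34, adjusted p = 0.0352), with 0.84 when WT1 was left out and 1.84 when WT2 was. The Mllt3 call was lost without KO1 (1.19) or KO2 (1.33) and in limma on log2(FPKM + 1) and log2(FPKM + 0.1). Mllt3 (ENSMUSG00000028496, protein-coding) lies on chromosome 4 from 87688162 to 87951601.

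Aff1, a scaffold of the complex also named AF4, had 257 and 124 CPM in WT1 and WT2 and 90.7 and 85.6 CPM in KO1 and KO2. The KO libraries were alike and below both WT libraries, which themselves differed by more than 2-fold. The log2 fold change was -1.11 (SE 0.32, adjusted p = 0.0439), and without the WT1 library it was -0.52, which is under the fold threshold. The Aff1 call was also lost without KO1 (-1.16) or KO2 (-1.07) and in limma on log2(FPKM + 1) and log2(FPKM + 0.1). Aff1 (ENSMUSG00000029313, protein-coding) lies on chromosome 5 from 103840240 to 104003188. Aff4, the main scaffold of the complex in many cells, had 463 and 202 CPM in WT and 345 and 317 CPM in KO libraries, which fell between the WT values. Its log2 fold change was -0.0058 (SE 0.35), and it was 0.04 with upper-quartile factors, so no direction can be given for it.

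Ell, an elongation factor that suppresses transient pausing, had 50.9 and 53.3 CPM in WT and 48.7 and 47.1 CPM in KO libraries (log2 fold change -0.12, adjusted p = 0.66). Ell lies on chromosome 8, and with chromosome medians removed it was called lower (-0.63, adjusted p = 0.0469). Its paralogue Ell2 had 69.8 and 43.7 CPM in WT and 35.4 and 34.9 CPM in KO libraries, with both KO libraries lower (log2 fold change -0.69, SE 0.25, adjusted p = 0.0857). Ell2 was called lower with the library number as a block and without the filter on low counts. Mllt1, the paralogue of Mllt3, had 54.2 and 63.5 CPM in WT and 47.0 and 47.8 CPM in KO libraries (log2 fold change -0.31, adjusted p = 0.259). Ell3, Eaf1 and Eaf2, the last members of the complex, had log2 fold changes of 0.73, 0.20 and -0.88, and none passed the test. Ell3 and Eaf2 had few reads (31 to 66 and 35 to 135 in a library) and wide intervals, and Eaf2 also differed between the WT libraries (43 and 135 reads).

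FACT, which moves histones out of the way of Pol II and puts them back, gave no call, where 21.7% of all genes tested were called. Ssrp1 had 254 and 229 CPM in WT and 323 and 291 CPM in KO libraries, with both KO libraries higher (log2 fold change 0.35, SE 0.18, adjusted p = 0.203). Its partner Supt16 had 400 and 275 CPM in WT and 329 and 272 CPM in KO libraries, which overlapped (log2 fold change -0.17, adjusted p = 0.637). The histone chaperone Supt6 had 325 and 204 CPM in WT and 348 and 318 CPM in KO libraries, and its partner Iws1 had 184 and 95.3 CPM in WT and 129 and 120 CPM in KO libraries. Both overlapped between genotypes, with log2 fold changes of 0.33 and -0.16.

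TFIIS, which makes a backtracked Pol II cleave its RNA and resume, is encoded by several genes, of which the widely expressed Tcea1 and the more tissue-restricted Tcea3 were on the list. Tcea3 had 33.2 and 35.1 CPM in WT and 104 and 73.1 CPM in KO libraries. The WT libraries were alike, and both KO libraries were more than 2-fold above them (log2 fold change 1.37, SE 0.22, adjusted p = 0.00715, the smallest of the 48). Tcea3 (ENSMUSG00000001604, protein-coding) lies on chromosome 4 from 135975040 to 136002209. Tcea1 had 167 and 119 CPM in WT and 158 and 132 CPM in KO libraries, between the WT values (log2 fold change 0.02, adjusted p = 0.966). Xrn2, the exonuclease of termination, had 184 and 136 CPM in WT and 156 and 133 CPM in KO libraries, which overlapped (log2 fold change -0.14).

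Per gene length, Polr2a was the most abundant of the 48 in both genotypes, with a mean of 103 FPKM in WT and 110 FPKM in KO cells, followed by Polr2e with 90.1 and 83.1 FPKM. In WT cells Polr2a (77.2 and 128 FPKM) and Polr2e (77.6 and 103 FPKM) overlapped, so their order there lies within the spread. The FACT subunits came next in WT cells, with means of 66.5 FPKM for Supt16 and 64.2 FPKM for Ssrp1, and they too overlapped. At the low end, the WT means were 1.2 FPKM for Eaf2, 0.888 FPKM for Ell3 and 0.872 FPKM for Mllt3, below all other genes of the list. Cdc73 and Ell2 followed with 4.62 and 5.73 FPKM. The genes that changed also moved in this order. Polr2k went from rank 41 in WT to rank 13 in KO cells (7.09 and 14 FPKM to 46.2 and 35.7 FPKM), Tcea3 from rank 24 to rank 5, and Aff1 from rank 28 to rank 41.

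The Polr2k level in WT cells was below that of the other 11 subunits by mean FPKM, the next being Polr2c at 14.8 FPKM. Polr2k (7.09 and 14 FPKM) and Polr2c (12.6 and 17.0 FPKM) overlapped in WT, although Polr2k was the lower in each library. The reads of its matched pseudogenes are not included. In KO cells Polr2k (41.0 FPKM) was near Polr2b (43.3 FPKM) and Polr2d (44.6 FPKM). Summed over the subunits, Pol II had 461 and 517 FPKM in WT and 552 and 523 FPKM in KO libraries, and both KO sums were above the WT sums. Without Polr2k the sums were 454 and 502 FPKM in WT and 506 and 487 FPKM in KO libraries and overlapped. Summed FPKM was 118 and 82.2 in WT and 88.6 and 83.8 in KO libraries for the super elongation complex, and 76.0 and 56.7 in WT and 52.0 and 49.3 in KO libraries for the other CTD kinases. The TFIIS sum was 78.7 and 63.9 FPKM in WT and 126 and 94.1 FPKM in KO libraries.

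Several of the genes are paralogues that can stand in the same complex, and their ratio was computed within each library from FPKM. Tcea3 was at 42.7% and 63.8% of Tcea1 in WT1 and WT2 and at 142% and 120% in KO1 and KO2, so the order of the pair was reversed in both KO libraries. Mllt3 rose from 4.30% and 7.18% of Mllt1 in WT libraries to 18.4% and 16.7% in KO libraries. Aff1 was at 79.1% and 87.0% of Aff4 in WT and at 37.4% and 38.4% in KO libraries. This ratio was steadier between the WT libraries than either gene alone. Aff4 lies on chromosome 11, whose genes were higher as a whole in KO cells, and the log2 fold change of Aff1 less that of Aff4 was -1.11 as measured and -0.60 with chromosome medians removed. Ell2 was at 43.3% and 25.9% of Ell in WT and at 23.0% and 23.4% in KO libraries, which left WT2 close to the KO libraries. With Ell on chromosome 8, which was raised in the same way, this difference went from -0.57 to 0.0066 once chromosome medians were removed. Ccnt2 was at 134% and 128% of Ccnt1 in WT and at 113% and 100% in KO libraries. Cdk13 was at 71.8% and 122% of Cdk12 in WT and at 59.5% and 67.6% in KO libraries. Cdk12 also lies on chromosome 11, and the direction of this pair turned with chromosome medians removed (from -0.46 to 0.10). For Tcea3 and Tcea1 the values were 1.36 and 1.34, for Mllt3 and Mllt1 1.58 and 1.51, and for Ccnt2 and Ccnt1 -0.31 and -0.34. The scarce Ell3 was at 5.7% and 5.0% of Ell in WT and at 7.9% and 11.5% in KO libraries (0.86 and 1.41). Eaf2, also scarce, was at 3.6% and 13.5% of Eaf1 in WT and at 2.8% and 4.6% in KO libraries, which overlapped (-1.08 and -1.15). With 2 libraries in each genotype an exact permutation test of a ratio cannot reach p below 0.05. No other test of the ratios was run, so they are descriptions only.

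**Figure D3:**
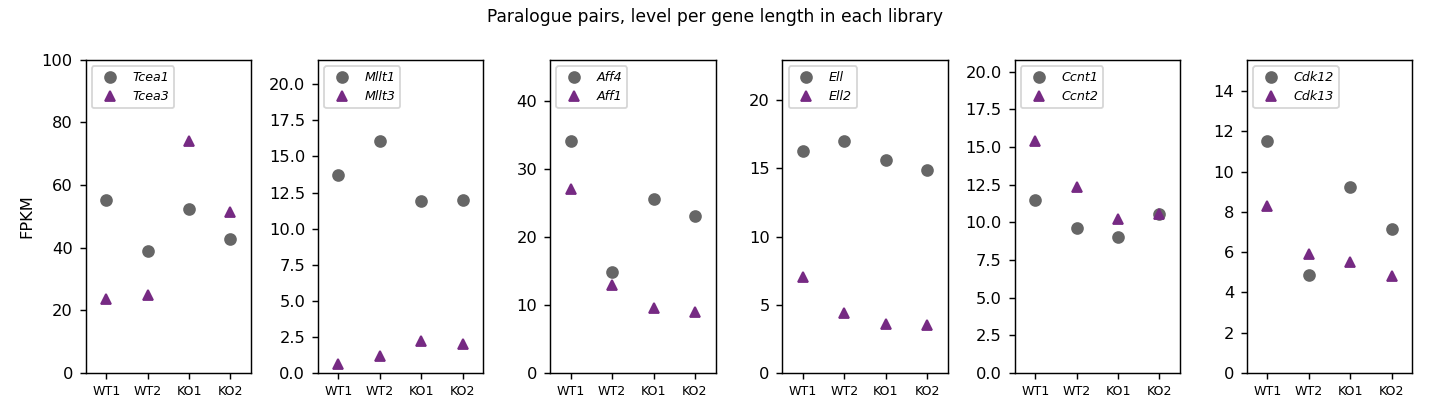
FPKM of 6 pairs of paralogues in each of the 4 libraries, with the first-named gene as grey circles and its paralogue as purple triangles. Tcea3 lies below Tcea1 in both WT libraries and above it in both KO libraries, and Aff1 falls away from Aff4 in the KO libraries.

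Genes on chromosomes 8 and 11 were higher as a whole in both KO libraries, with a median log2 fold change of 0.51 and 0.50, while the medians of the other autosomes ran from -0.19 to -0.0069. On those chromosomes 26.5% of the genes tested were higher and 4.56% lower, against 8.61% and 11.7% on all others. Of the 48 genes, 8 lie there: Polr2c and Ell on chromosome 8, and Polr2a, Supt4a, Supt6, Cdk12, Hexim1 and Aff4 on chromosome 11. Only Polr2c among them was called, and 7 of the 8 were below the median of their chromosome. With chromosome medians taken out of both KO libraries, 9.33% of all genes were called higher and 9.81% lower, and Polr2c lost its call. Under the same setting Hexim1 and Ell were called lower, at -0.74 (adjusted p = 0.0265) and -0.63 (adjusted p = 0.0469). The values of Polr2a, Supt4a, Supt6 and Cdk12 turned negative there, at -0.39, -0.19, -0.16 and -0.49, and none of these passed the test.

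On the other chromosomes the same setting kept Polr2k, Larp7, Mllt3, Tcea3 and Aff1 past both thresholds, brought Nelfe past them (log2 fold change 0.68, adjusted p = 0.0474) and left Ccnk short. In all it gave 5 higher and 3 lower genes. The copy number of these chromosomes was not measured, and the part that it has in the values of the 8 genes was not tested.

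**Figure D4:**
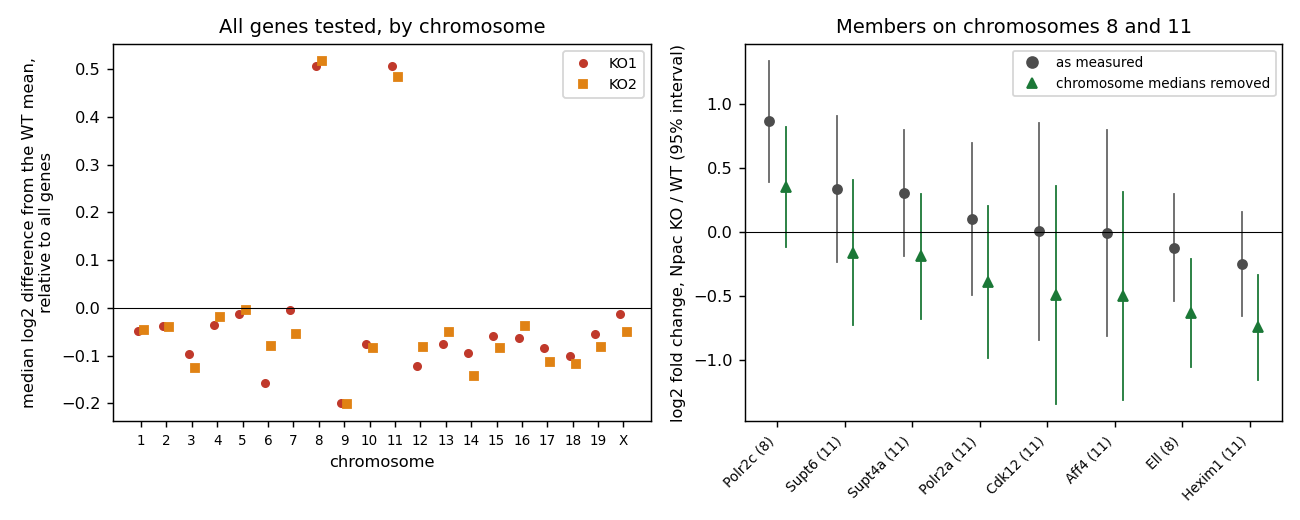
Left, the median log2 difference of each KO library from the WT mean over the genes tested on each chromosome. Right, the log2 fold change and 95% interval of the 8 genes on chromosomes 8 and 11 as measured (circles) and with chromosome medians removed (triangles). Chromosomes 8 and 11 stand near 0.5 in both KO libraries, and Polr2c, Ell and Hexim1 change call between the circles and triangles.

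The spread behind these tests came mostly from the WT pair. The median absolute log2 difference over the 48 genes was 0.39 between the WT libraries and 0.11 between the KO libraries, and 41 of the 48 genes (85.4%) differed more within the WT pair, against 65.4% of all genes tested. Within the WT pair the difference went with gene length. Length here is the value listed in the deposited table, which can be far shorter than the span of the gene. Polr2a, for example, has a listed length of 7067 bases and lies from 69624823 to 69649463. All 9 genes of up to 2000 bases were higher in WT2, while 1 of the 10 genes over 8000 bases was, namely Mllt3. Polr2l and Polr2k were 0.99 and 0.97 higher in WT2 on the log2 scale, and Cdk12, Aff4, Aff1 and Iws1 were lower there by -1.24, -1.19, -1.05 and -0.95. Spearman's rho between the WT2 minus WT1 difference and length was -0.59 over the 48 genes and -0.20 over all genes, and 0.11 and 0.05 for the KO pair. These are correlations across genes, which share their libraries and are not independent. RNA integrity values were not used here, and the part of RNA quality or library preparation in this difference was not tested. Removing the trend with length from each library, a setting chosen after the difference was seen, left the 5 higher and 2 lower genes as they were, with 11.7% and 12.1% of all genes called higher and lower.

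**Figure D5:**
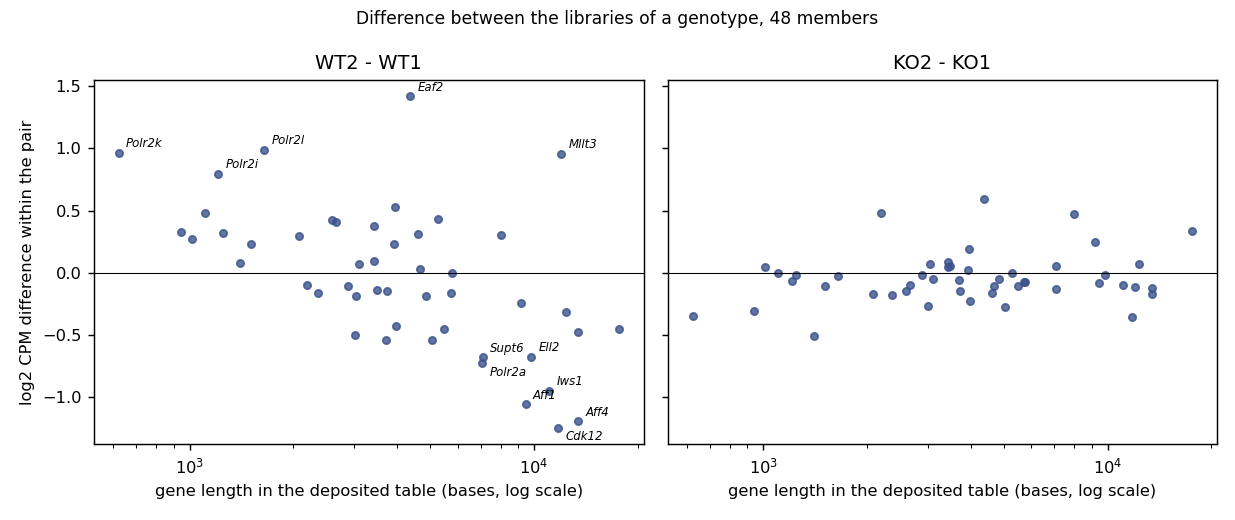
Log2 CPM difference between the libraries of each genotype for the 48 genes against the gene length listed in the deposited table (log scale). WT2 minus WT1 is on the left and KO2 minus KO1 on the right. On the left the short genes lie above 0 and most long genes below it, and on the right most points lie nearer to 0, with Eaf2 (0.60), Tcea3 (-0.51), Ell3 (0.48) and Ctr9 (0.47) farthest from it.

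Each KO library was also set against the WT pair in a fit with 3 groups, where a lone KO library is assumed to vary as the WT libraries do. KO1 gave 2 higher genes, Polr2k (log2 fold change 2.12, adjusted p = 0.0248) and Tcea3 (1.61, adjusted p = 0.0133), where 3.83% of all genes were higher and 3.34% lower. KO2 gave none by edgeR, where 3.1% and 2.34% of all genes were higher and lower. Polr2k was at 1.77 and Tcea3 at 1.10 in KO2. The other 5 called genes, whose libraries do not overlap between genotypes and so must keep their direction here, had log2 fold changes of 0.86 and 0.86 for Polr2c, 0.74 and 0.56 for Larp7, 1.33 and 1.21 for Mllt3, -0.68 and -0.61 for Ccnk, and -1.07 and -1.15 for Aff1 in KO1 and KO2. Both comparisons share the WT libraries. Whether the KO lines differed from each other was not tested.

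The other parts of the Pol II machinery were described from 126 genes in 12 lists, of which 125 were tested. Higher in KO cells were 12 of them (9.6%) and lower were 2 (1.6%), beside 11% and 10.7% of all genes tested, with a median log2 fold change of 0.07. None of 9 TFIIH, 13 TFIID, 3 Elongin and 7 chromatin-linked elongation genes was called. Gtf2e2, a subunit of the initiation factor TFIIE on chromosome 8, had 49.4 and 57.2 CPM in WT and 127 and 136 CPM in KO libraries (log2 fold change 1.30, adjusted p = 0.00449). Among 30 Mediator genes, Med24 was higher (0.70, on chromosome 11) and Med22 lower (-0.76).

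Integrator, the complex that cleaves nascent RNA and ends transcription by paused Pol II, had 3 of 14 genes higher and none lower (21.4% and 0%, against 11% and 10.7% of all genes). Ints1, its largest subunit, had 119 and 133 CPM in WT and 223 and 226 CPM in KO libraries (log2 fold change 0.83, adjusted p = 0.0156). Ints2 (1.18, on chromosome 11, where 26.5% of genes were higher) and Ints3 (0.67) were also higher. Of the 16 cleavage and polyadenylation genes, Clp1 (0.98) and Nudt21 (0.69, on chromosome 8) were higher. Rpap1 (0.93) and Rpap3 (0.74), which help to assemble Pol II and bring it into the nucleus, were the 2 higher genes of the 9 CTD phosphatases and assembly factors. Rpap1 had 195 and 140 CPM in WT and 357 and 284 CPM in KO libraries.

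The subunits that belong to the other polymerases gave 3 higher genes and 1 lower gene of the 16 tested, where 11% and 10.7% of all genes were higher and lower. For Pol I, which transcribes ribosomal RNA, Polr1b (0.92) and Polr1e (0.83) were higher and Polr1h (-0.70) was lower. For Pol III, which makes transfer RNA, Polr3g was higher, with 57.9 and 60.6 CPM in WT and 97.9 and 95 CPM in KO libraries (log2 fold change 0.70, adjusted p = 0.027). Polr3g is the form of its subunit that is typical of pluripotent cells. Neither of the 2 subunits shared by Pol I and Pol III was called.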

How the data were processed

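RNA from 2 WT and 2 Npac KO libraries of E14 cells was sequenced by the authors as paired-end reads, mapped with HISAT and counted per gene. The submitters' processing notes name CASAVA, HISAT2 2.0.5, featureCounts 1.5.0-p3 and mm10. Of 52125 gene IDs shared with a GRCm38 annotation, 1524 had the same start and end as in the deposited table, so coordinates of the table are given as listed and were not combined with GRCm38. The authors deposited raw read counts and FPKM values, which divide those counts by gene length and a scaled library size. The counts were analysed with edgeR 4.0.16 in R 4.3.3 (TMM, filterByExpr, quasi-likelihood test, genotype only). The study's methods name edgeR, the Benjamini and Hochberg adjustment and both thresholds, and the other steps were chosen here. The fit was checked on simulated counts with known fold changes. limma 3.58.1 was run on log2(FPKM + 1) and log2(FPKM + 0.1), and DESeq2 1.42.0 on the counts. Pseudogene transcripts that aligned to a member by blastn 2.17.0 with at least 90% identity and 60% coverage were taken as its copies. Named genes were the called genes, the extremes of each complex and fixed anchors of each complex. Others were named so that each gene is accounted for. The members and lists were chosen with earlier results of these data known. Log2 fold changes are relative to WT.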

Additional observations from a re-analysis of the deposited data

How the results depend on the processing

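The 5 higher and 2 lower genes were the same under the size factors of DESeq2, upper-quartile factors, a minimum of 10 reads in every library, DESeq2 itself, removal of the length trend and summing of pseudogene reads. Without a filter Ell2 joined the lower genes. limma on log2(FPKM + 1) and log2(FPKM + 0.1) called 4 higher genes and 1 lower gene, without Mllt3 and Aff1 (9.87% and 8.78% of all genes at a pseudocount of 1). With every gene above 0 kept, limma called 0 members in either direction, with 197 genes higher and 178 lower among all genes. At an unadjusted p in the reported edgeR fit, 3074 genes (16.9%) were higher and 3090 (17%) lower, with 5 and 3 members. KO1 against WT gave 696 higher and 606 lower genes (2 and 0 members), and KO2 against WT 563 and 425 (0 and 0 members).

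With the replicate number as a block, 3128 genes were higher and 2994 lower, and 6 and 3 members, with Nelfe and Ell2 added. The labels share only these numbers, and nothing in them says that a number marks a shared culture or batch. The deviations of WT1 and KO1 from their group means correlated at 0.33 across genes. With 2 pairs this neither settles nor excludes a pairing, and the fit without the block is the one reported.

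Leaving out 1 library at a time gave 0 to 8 higher and 0 to 4 lower members, and 642 to 3477 higher and 606 to 3311 lower genes, all genes counted, with the lone library assumed to vary like the other group. Without KO1, 0 of the 7 calls were left (Polr2k adjusted p = 0.0578, Tcea3 0.0687). Without KO2 only Polr2k and Tcea3 were called. Without WT1, Aff1 (-0.52) and Ccnk (-0.58) fell under the fold threshold, as did Larp7 (0.58) without WT2. Calls were also gained, without WT1 for Cdk12 (0.73), Aff4 (0.68) and Supt6 (0.68), higher, and Nelfa and Eaf2, lower, and without WT2 for Polr2i, Polr2l and Nelfe (0.74), higher, and Cdk13 and Ell2, lower.

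Signs turned only for genes that were not called. With chromosome medians removed Polr2a was at -0.39, Cdk7 at 0.015, Cdk12 at -0.49, Supt4a at -0.19 and Supt6 at -0.16, and Leo1 went from -0.18 to 0.023. Cdk12 was at -0.00030 with the size factors of DESeq2, -0.00059 with DESeq2 and -0.18 in KO2 alone. Ccnt1 was at 0.0098 and Tcea1 at -0.12 in KO2 alone, and Tcea1 at -0.031 with the length trend removed. Aff4 was at 0.043 with upper-quartile factors, 0.0018 without a filter, 0.0055 with at least 10 reads, 0.099 and 0.11 in limma with pseudocounts of 1 and 0.1, 0.099 with every gene, 0.11 under the block, 0.13 without the length trend and 0.053 in KO1 alone. Leaving out 1 library gave ranges of Polr2a -0.22 to 0.48, Cdk7 -0.29 to 0.22, Cdk12 -0.49 to 0.73, Aff4 -0.48 to 0.68, Supt16 -0.41 to 0.10, Iws1 -0.56 to 0.36, Tcea1 -0.21 to 0.26 and Xrn2 -0.34 to 0.060. The causes were not tested. Reads were fewest for Ell3, Eaf2 and Polr2k in WT1.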
